A study of Mus musculus with 6 samples.

Results

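Caveolae are small flask-shaped pits of the plasma membrane, and the genes described here encode the proteins that build them. The rule took every row of the deposited count table whose symbol was a caveolin (Cav1, Cav2 or Cav3), a cavin under its current or older name, or Ehd2. It found 8 genes among 40428 features: Cav1, Cav2, Cav3, Cavin1, Cavin2, Cavin3, Cavin4 and Ehd2, each as 1 row and none under an older name.

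RNA of subcutaneous white fat was sequenced from 6 mice of strain C57BL/6J, fed regular chow at room temperature. The 3 control mice carried floxed Nampt alleles (flox/flox). The 3 ANKO mice (adipocyte-specific Nampt knockout) carried floxed Nampt and the adiponectin-Cre transgene, whose promoter is active in adipocytes. Age was not given in the sources used here, nor was it stated whether the controls lacked Cre. The comparison asks how the tissue's transcripts differ once adipocytes lose Nampt, the enzyme that makes the precursor nicotinamide mononucleotide for NAD. Because RNA came from whole tissue, fewer cells of a type and less RNA per cell cannot be told apart in any value below.

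Libraries held 19748962 to 23860596 counts. Levels are given as normalised read counts (CPM, counts relative to a library size scaled by the trimmed mean of M values, TMM), and changes as log2 fold changes of ANKO over control. A gene is said to have risen or fallen only where its edgeR quasi-likelihood p, adjusted over all 19272 features tested, was under 0.05. Nampt itself stood at 83.6, 93.0 and 87.0 CPM in controls and 48.6, 50.2 and 47.0 CPM in ANKO mice (log2 fold change -0.85, SE 0.0776, adjusted p = 0.00416). All 12 adipocyte markers were measured, with a summed level of 9597 to 15143 CPM in controls and 5889 to 10016 CPM in ANKO. Skeletal muscle markers varied far more between libraries, from 291 CPM in ANKO 3 to 36926 CPM in ANKO 1. Mammary epithelial markers (168 to 1247 CPM) and lymphocyte markers (221 to 363 CPM) were also present in all 6 libraries.

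Caveolins are hairpin-shaped membrane proteins that gather into oligomers. Cavins are cytoplasmic proteins that coat the caveolin-rich membrane from the inside, and both are needed to curve it into a pit. Ehd2 is an ATPase that sits at the neck of the pit and holds it at the cell surface. Adipocytes and endothelial cells are known for dense caveolae, while Cav3 and Cavin4 are the versions used by muscle. In fat cells caveolae are known as a site of the insulin receptor and of fatty acid entry, and people and mice without Cav1 or Cavin1 have lipodystrophy.

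The stretches of genome just before the start sites are shown for the 6 members where one clear of the gene's own exons was available. These 6 fell into 2 patterns, described below. Ehd2, Cav1, Cav2 and Cavin2 were lower in every ANKO library than in every control library. Cav3 and Cavin4 overlapped between the groups, and each was highest and lowest in the same libraries as muscle RNA. Sequences are from RefSeq (GRCm38.p6), where 7 of the 8 members had an entry and Cavin3 had none. Each runs 5′ to 3′ towards the gene and covers 250 bases before the outermost RefSeq start, except that Ehd2 is shown for 218 bases to leave out part of an exon annotated further upstream. Cavin1 is not shown because its RefSeq start lies inside a longer GENCODE exon. Ehd2 is from chr7:15967568-15967785 on the minus strand. The other stretches lie on plus strands: Cav1 at chr6:17306085-17306334, Cav2 at chr6:17280935-17281184, Cavin2 at chr1:51288876-51289125, Cav3 at chr6:112459255-112459504 and Cavin4 at chr4:48663264-48663513. Capitals mark any match, on either strand and with no overlap between motifs, to GGGCGG (the GC box bound by Sp1), to CCAAT (the box bound by NF-Y), to TATAAA (the core element of some promoters) or to CANNTG (the E-box of helix-loop-helix factors such as those of muscle).
Ehd2: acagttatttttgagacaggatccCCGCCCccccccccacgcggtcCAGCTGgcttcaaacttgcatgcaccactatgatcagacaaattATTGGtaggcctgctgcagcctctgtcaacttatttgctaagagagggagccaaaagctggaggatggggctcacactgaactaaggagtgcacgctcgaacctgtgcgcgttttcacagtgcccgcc
Cav1: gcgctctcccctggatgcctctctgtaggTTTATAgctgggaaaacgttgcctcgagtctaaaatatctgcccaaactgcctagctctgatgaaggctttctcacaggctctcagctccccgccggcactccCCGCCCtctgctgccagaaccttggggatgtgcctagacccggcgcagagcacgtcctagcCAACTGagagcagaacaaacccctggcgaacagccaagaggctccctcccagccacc
Cav2: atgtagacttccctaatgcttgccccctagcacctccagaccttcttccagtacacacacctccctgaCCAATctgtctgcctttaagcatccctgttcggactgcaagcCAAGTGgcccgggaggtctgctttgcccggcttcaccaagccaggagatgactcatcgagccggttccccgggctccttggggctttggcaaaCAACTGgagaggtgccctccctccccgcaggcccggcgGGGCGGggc
Cavin2: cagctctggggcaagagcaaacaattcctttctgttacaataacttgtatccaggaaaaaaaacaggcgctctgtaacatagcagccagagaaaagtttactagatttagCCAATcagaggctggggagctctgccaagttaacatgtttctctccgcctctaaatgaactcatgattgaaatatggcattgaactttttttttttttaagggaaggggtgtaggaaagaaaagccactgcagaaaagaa
Cav3: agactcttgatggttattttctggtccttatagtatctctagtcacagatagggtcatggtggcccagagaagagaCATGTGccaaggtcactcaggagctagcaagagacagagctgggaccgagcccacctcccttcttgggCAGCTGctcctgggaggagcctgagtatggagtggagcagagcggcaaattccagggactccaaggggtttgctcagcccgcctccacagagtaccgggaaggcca
Cavin4: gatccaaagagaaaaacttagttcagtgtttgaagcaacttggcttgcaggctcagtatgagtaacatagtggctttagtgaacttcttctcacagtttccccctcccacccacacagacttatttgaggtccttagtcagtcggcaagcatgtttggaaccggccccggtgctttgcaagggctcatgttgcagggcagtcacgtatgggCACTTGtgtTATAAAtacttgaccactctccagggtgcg

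Cav1, Cav2 and Ehd2 each held 1 GC box, a sequence found in 32.7% of 32851 such windows of 250 bases. Cav2, Cavin2 and Ehd2 each held 1 CCAAT box (33.8% of windows). The letters TATAAA stood 30 to 25 bases before the start in Cavin4, and on the opposite strand 221 to 216 bases before the start in Cav1 (12.4% of windows). An E-box was present in all of the 6 but Cavin2, with 2 copies each in Cav2 and Cav3 (66.2% of windows). No single motif separated the 4 lower genes from the pair of muscle genes.

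Ehd2 was the member that fell. Cav1, Cav2, Cavin1 and Cavin2 were also lower in every ANKO library than in every control library, at 0.586 to 0.746 of the control level, but did not pass the test. Cavin3 was the exception among the non-muscle members, with each ANKO library slightly above each control library. Cav3 and Cavin4 showed no separation. Thus 1 of the 8 members was called, against 1.59% of all features tested (1.1% lower and 0.488% higher). In 6 of the 8 the groups did not overlap, against 19.4% of all features, and 6 of the 8 had an unadjusted p under 0.05, against 12.9%. The median log2 fold change of the 8 was -0.45, and that of all features 0.00068. The tests differed in how many members they called. DESeq2 called 4 members as lower (Cav1, Cavin1, Cavin2 and Ehd2) and none as higher. That fit called 4.6% of 19268 features in either direction, 498 as lower and 388 as higher. With no low-count filter Cav1 and Ehd2 were called (1.59% of features), and with skeletal muscle signal as a covariate none was called by edgeR (0.835% of features), although 5 of the 8 had an unadjusted p under 0.05.

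**Figure D1:**
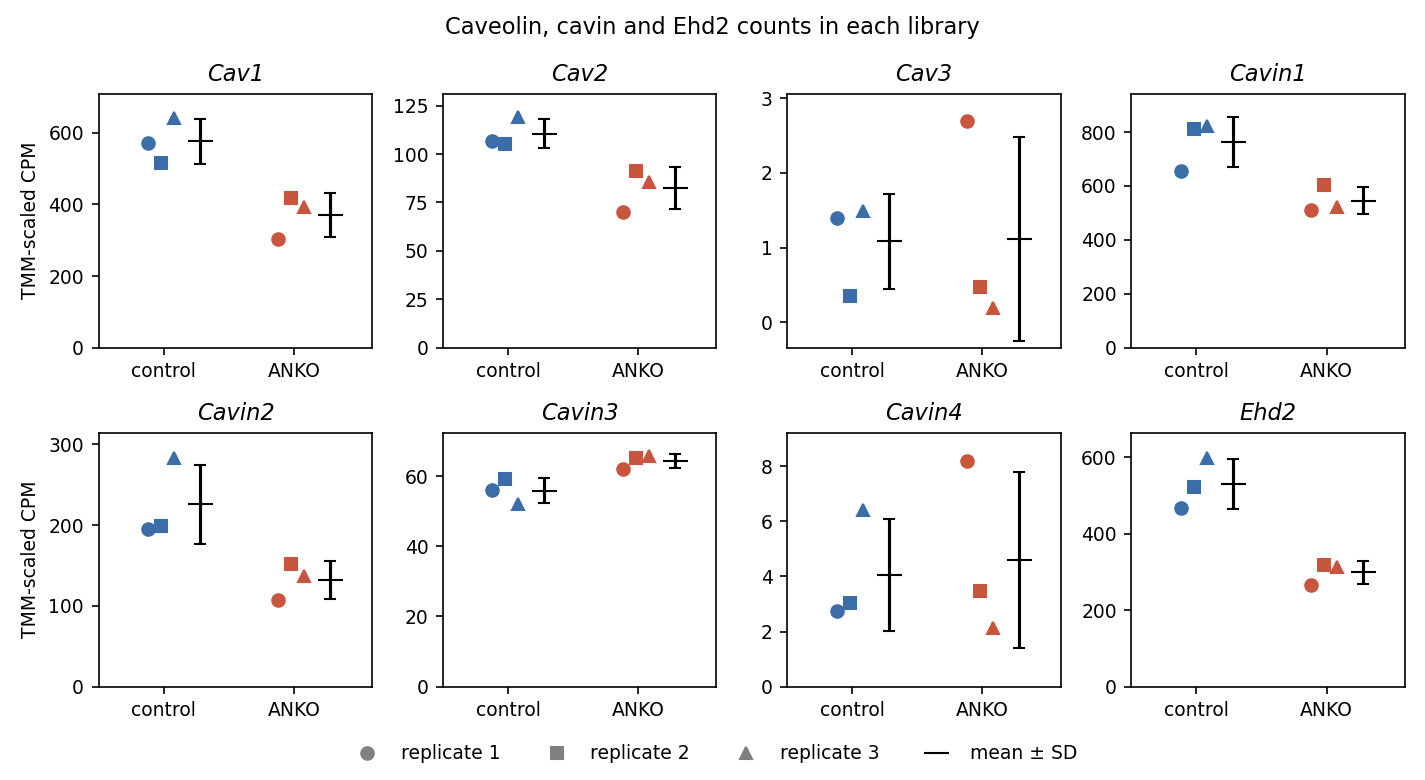
TMM-scaled CPM (vertical axes, each with its own scale) of the 8 members in 3 control (blue) and 3 ANKO (red) libraries; bars give mean ± SD over 3 mice. Ehd2 lies between 467 and 598 CPM in controls and between 265 and 318 CPM in ANKO, while Cav3 and Cavin4 overlap between the groups.

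Ehd2 (ENSMUSG00000074364.6, chromosome 7, 15946958 to 15967567, minus strand) measured 467, 522 and 598 CPM in controls 1 to 3. In ANKO 1 to 3 it measured 265, 318 and 312 CPM. The highest ANKO library was thus well below the lowest control library. Mean levels were 529 ± 65.8 in controls and 299 ± 29.3 CPM in ANKO (SD, n = 3), a fall to a ratio of 0.564 with a 95% interval of 0.462 to 0.688 (log2 fold change -0.83, SE 0.125, adjusted p = 0.0212). Its p was the 150th smallest of all features. The direction and size hardly moved when 1 library was left out, with log2 fold changes of -0.91 to -0.72. The call was kept only without control 1 and was lost without control 2, control 3, ANKO 1, ANKO 2 or ANKO 3 (highest adjusted p = 0.0885, without ANKO 3). With the muscle covariate the log2 fold change was -0.85 (adjusted p = 0.0515).

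Cav1 encodes the main caveolin of fat and endothelium, and Cav2 a partner that joins its oligomers. The genes are neighbours on chromosome 6 (plus strand), with Cav2 at 17281185 to 17289115 and Cav1 17.2 kb further on, at 17306335 to 17341452. Cav1 measured 570, 517 and 640 CPM in controls and 302, 417 and 392 CPM in ANKO. Cav2 measured 107, 105 and 119 CPM in controls and 70.2, 91.4 and 85.5 CPM in ANKO. Both genes were highest in control 3 and lowest in ANKO 1, and their groups did not overlap. The ratio to control was 0.643 for Cav1 (95% interval 0.511 to 0.809; log2 fold change -0.64, SE 0.144, adjusted p = 0.0871). For Cav2 it was 0.746 (95% interval 0.624 to 0.892; log2 fold change -0.42, SE 0.112, adjusted p = 0.138). Cav1 was called by DESeq2 (adjusted p = 0.00289), while Cav2 was not (adjusted p = 0.0602). Neither was called in any of the 6 edgeR fits that left out 1 library, where their log2 fold changes ranged from -0.73 to -0.49 and from -0.50 to -0.30.

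Cavin1 is the coat protein without which caveolae do not form, and Cavin2 binds it and promotes membrane curvature. Cavin1 (chromosome 11, 100956733 to 100970887, minus strand) measured 656, 810 and 822 CPM in controls and 512, 605 and 522 CPM in ANKO. Cavin2 (chromosome 1, 51289126 to 51302960, plus strand) measured 195, 199 and 282 CPM in controls and 107, 152 and 137 CPM in ANKO. Every ANKO value was below every control value for both genes, and the control spread was wider than for Cav2. The ratio for Cavin1 was 0.716 (95% interval 0.586 to 0.875; log2 fold change -0.48, SE 0.126, adjusted p = 0.134). Cavin2 had the second lowest ratio of the 8, 0.586 (95% interval 0.435 to 0.789; log2 fold change -0.77, SE 0.184, adjusted p = 0.110). DESeq2 called both, with adjusted p = 0.0155 for Cavin1 and 0.00414 for Cavin2.

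Cavin3 binds cavin complexes and protein kinase C delta. It is on chromosome 7 (105480083 to 105482300, minus strand). Its exons overlap those of Gm45667 on the opposite strand, and since the strand setting of the counting is not given, reads of the pair cannot be told apart. Cavin3 measured 56.2, 59.1 and 52.0 CPM in controls and 62.1, 65.2 and 65.8 CPM in ANKO. The groups did not overlap but lay close together, with 55.8 ± 3.55 CPM in controls and 64.3 ± 2.00 CPM in ANKO. The ratio was 1.15 (95% interval 1.01 to 1.31; log2 fold change 0.21, SE 0.0805, adjusted p = 0.326), and no alternative called it.

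**Figure D2:**
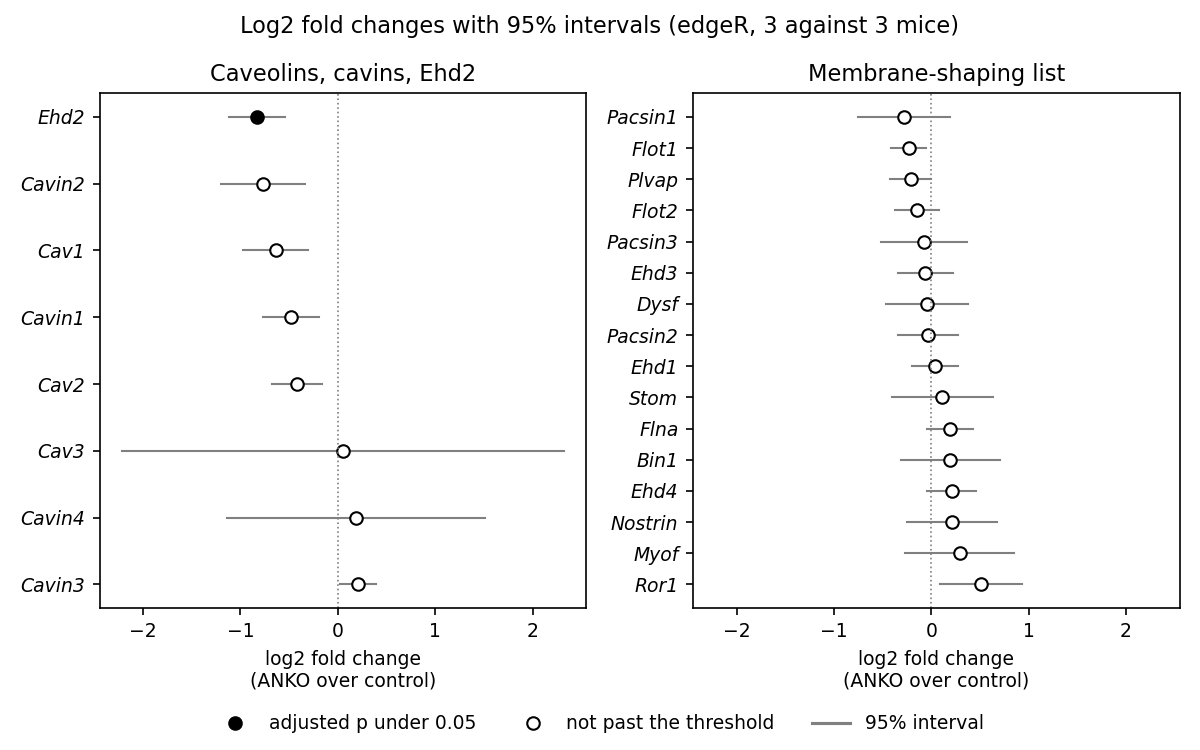
Log2 fold changes of ANKO over control (horizontal axes) with 95% intervals for the 8 members (left) and 16 membrane-shaping genes (right); filled points have an adjusted p under 0.05. Ehd2 is the filled point, and the interval of Cav3 is the widest among the members.

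The proportions of members to each other were compared as log2 ratios of CPM within each library, with two-sided exact permutation tests of 3 against 3 that cannot give a p below 0.1. The ratio of Cav2 to Cav1 was 0.187, 0.204 and 0.186 in controls and 0.232, 0.219 and 0.218 in ANKO, so each ANKO library held more Cav2 per Cav1 (log2 difference 0.22, exact p = 0.1, 0.25 after Benjamini-Hochberg adjustment over 5 ratios). The ratio of Cavin3 to Cavin1 was 0.0857, 0.0730 and 0.0633 in controls and 0.121, 0.108 and 0.126 in ANKO, again without overlap (log2 difference 0.69, exact p = 0.1, adjusted 0.25). Cavin1 to Cav1, Cavin2 to Cavin1 and Ehd2 to Cav1 overlapped between groups. Their log2 differences were 0.17, -0.29 and -0.18, with exact p = 0.4, 0.3 and 0.2. All 5 differences kept their sign when any 1 library was left out.

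**Figure D3:**
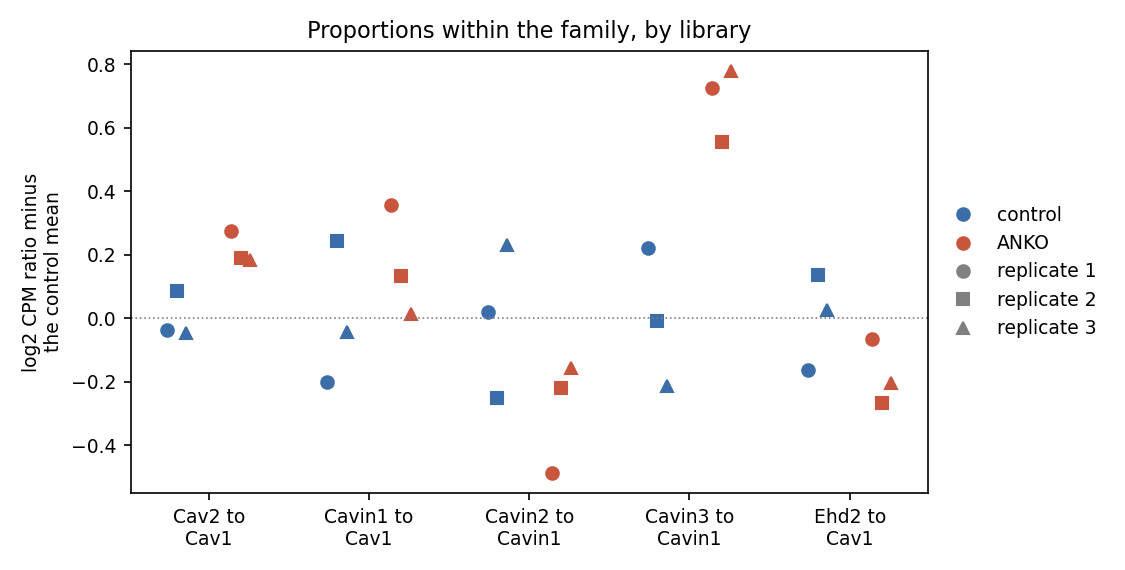
Log2 ratio of CPM between pairs of members, minus its mean over the controls (vertical axis), in each control (blue) and ANKO (red) library. The ANKO libraries stand above all controls for Cav2 to Cav1 and for Cavin3 to Cavin1, by 0.22 and 0.69 on average, and overlap the controls for the other ratios.

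Cav3 and Cavin4, the muscle members, were the least abundant members and differed more between mice than between genotypes. Cav3 (chromosome 6, 112459505 to 112472872, plus strand) had 32, 7 and 29 counts in controls and 64, 11 and 4 counts in ANKO. This is 1.40, 0.353 and 1.49 CPM against 2.69, 0.476 and 0.186 CPM, with a log2 fold change of 0.05 (SE 0.955, adjusted p = 0.991; 95% interval of the ratio 0.215 to 5.01). The sign of that value turned under limma-voom, with the replicate block, without control 2 and without ANKO 1. Cavin4 (chromosome 4, 48663514 to 48673502, plus strand) had 63, 60 and 124 counts in controls and 195, 80 and 46 counts in ANKO. Its levels were 2.76, 3.02 and 6.39 CPM and 8.19, 3.46 and 2.14 CPM, with a log2 fold change of 0.19 (SE 0.556, adjusted p = 0.941; 95% interval of the ratio 0.455 to 2.85), which turned negative without control 1 or ANKO 1. For both genes ANKO 1 was the highest library and ANKO 3 the lowest, so the extremes belong to the same genotype.

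The summed level of 18 skeletal muscle markers, such as the myosin Myh4 and titin (Ttn), was 12276, 3639 and 19551 CPM in controls 1 to 3 and 36926, 6370 and 291 CPM in ANKO 1 to 3. Cav3 put the 6 libraries in the same order as this sum. Cavin4 shared its highest and lowest library but not the order between them. Control 1 held less Cavin4 (2.76 CPM) than control 2 (3.02 CPM) and ANKO 2 (3.46 CPM), although its marker sum was higher. Between the highest and the lowest library the marker sum differed 127-fold, Cav3 14.5-fold and Cavin4 3.83-fold. Cav1, Cav2, Cavin1, Cavin2 and Ehd2 differed 1.61-fold to 2.64-fold between their extremes and Cavin3 1.26-fold. In ANKO 3, where muscle markers were lowest, Cavin4 still had 46 counts and made up 0.734% of the marker sum, against 0.0222% to 0.0831% in the other libraries. Cav3 made up 0.0638% of the sum there, from 4 counts, against 0.0073% to 0.0114% elsewhere. With the muscle covariate the standard error of Cav3 went from 0.955 to 0.518 and that of Cavin4 from 0.556 to 0.329, with log2 fold changes of 0.08 and 0.36 (adjusted p = 0.978 and 0.770).

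**Figure D4:**
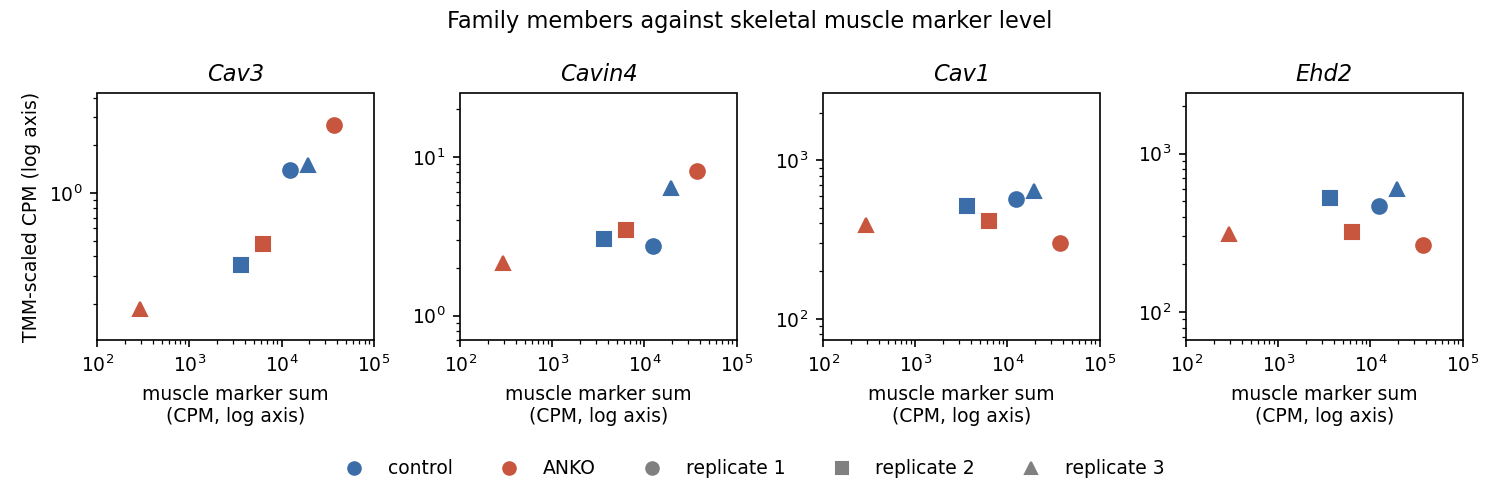
TMM-scaled CPM of Cav3, Cavin4, Cav1 and Ehd2 (vertical log axes, all spanning the same fold) against the summed CPM of 18 skeletal muscle markers (horizontal log axis) in 3 control (blue) and 3 ANKO (red) libraries. Cav3 climbs 14.5-fold from the library with the least to the one with the most muscle signal, while the ANKO values of Ehd2 and Cav1 lie below all control values in the libraries with the most and with the least muscle signal.

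Per kilobase of exon, the order of levels in controls was Cavin1 (213 CPM per kb), Cav1 (167), Ehd2 (103), Cavin2 (73.8), Cavin3 (33.6), Cav2 (33.1), Cavin4 (1.98) and Cav3 (0.936). The control values of Cavin1 and Cav1 overlapped, as did those of Ehd2 and Cavin2 and those of Cavin3 and Cav2. In ANKO the order of the means was the same, at 152, 108, 58.3, 43.2, 38.7, 24.7, 2.24 and 0.966 CPM per kb. There Cavin2 (35.0 to 49.8 CPM per kb) overlapped Cavin3 (37.3 to 39.6), whereas Cavin3 no longer overlapped Cav2 (21.1 to 27.4). Cavin1 thus remained the most abundant message of the family and the muscle members the least.

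The patterns most like that of Cav1 over the 6 libraries were looked for among 1483 features of similar abundance, by the root-mean-square difference of centred log2 CPM. The closest were Ralgapa2, a subunit of the RalGAP complex (difference 0.0790), the interferon-inducible Ifi27 (0.105) and Fry (0.106). Ralgapa2 measured 295, 286 and 379 CPM in controls and 179, 225 and 203 CPM in ANKO, and Fry, which fell, had a log2 fold change of -0.75 (adjusted p = 0.0402). Fry was not called in any of the 6 edgeR fits that left out 1 library (adjusted p 0.0730 to 0.166), nor with the muscle covariate (0.102) or the replicate block (0.0766). Within the family Cav2 was nearest to Cav1 (0.120, with 4 of the 1483 features closer), followed by Cavin2 (0.123, 6 closer), Ehd2 (0.138, 9 closer) and Cavin1 (0.185, 39 closer). Cavin3 was far from Cav1 (0.463, with 1176 closer). The abundance limit was not applied to members, and Cav2 and Cavin3 lie below it. For Cav3, among 3432 features, the closest were Best3 (0.146), Asb18 (0.172) and Hrasls (0.211), and Cavin4 came at 0.447 with 61 features closer. Best3 had 45, 9 and 37 counts in controls and 106, 16 and 8 in ANKO, high and low in the same libraries as Cav3.

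Genes that act beside the caveolar coat were taken as 2 lists. In the list of 16 membrane-shaping genes, which holds the pacsins that bend membrane at the neck, the other Ehd proteins and the flotillins of a separate raft type, none was called by edgeR, DESeq2 or limma-voom. An unadjusted p under 0.05 was found for 3, 2 and 3 of them by the tools in that order. With edgeR 12.9% of all features had such a p. In that fit 8 of 16 had a negative log2 fold change, against 9614 of 19272 features, and the median was 0.0002. The smallest p was that of Flot1, at 55.9 ± 2.34 CPM in controls and 47.6 ± 2.05 CPM in ANKO (log2 fold change -0.23, SE 0.0792, adjusted p = 0.250). The paralogues of Ehd2 had log2 fold changes of 0.04 (Ehd1), -0.06 (Ehd3) and 0.21 (Ehd4), with adjusted p = 0.937, 0.901 and 0.495. The sign of Ehd1 turned without control 1 or ANKO 2 and that of Ehd3 without control 1. The difference between Ehd2 and its paralogues was not tested.

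In the list of 26 receptors, transporters and signalling proteins found at or with caveolae, 2 fell and none rose. Of all features 1.1% were called lower and 0.488% higher. A negative log2 fold change was found for 14, against 9614 of 19272 features, and the median was -0.04. An unadjusted p under 0.05 was found for 9, against 12.9% of all features. Of the 2 that fell, Plin1, the lipid droplet coat protein, stood at 434 ± 91.1 CPM in ANKO and 1028 ± 180 CPM in controls. Its log2 fold change was -1.24 (SE 0.186, adjusted p = 0.0212). The Plin1 call was lost without control 2 or ANKO 3 (adjusted p = 0.0722 and 0.110). With the muscle covariate Plin1 was not called either (adjusted p = 0.0592). DESeq2 called 7 of the list as lower, in a fit that called 4.6% of all features in either direction. Named after their values were seen, the insulin receptor substrate Irs1 (290 ± 35.1 and 168 ± 30.9 CPM), the endothelial nitric oxide synthase Nos3 (43.4 ± 3.88 and 25.1 ± 5.55 CPM) and the fatty acid transporter Slc27a1 (943 ± 322 and 338 ± 60.3 CPM) had log2 fold changes of -0.79, -0.79 and -1.48 with adjusted p = 0.0526, 0.0579 and 0.0687. The insulin receptor gene Insr stood at 265 ± 34.4 and 192 ± 14.8 CPM (log2 fold change -0.46, adjusted p = 0.120). In the other direction the TGF-beta receptor gene Tgfbr1 stood at 46.1 ± 1.20 and 56.5 ± 1.42 CPM, without overlap (log2 fold change 0.29, adjusted p = 0.120).

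Adipocyte, endothelial and lymphocyte marker levels were on average lower in ANKO, as the 5 lower members were. The median log2 fold changes of fibroblast, smooth muscle, skeletal muscle and mammary epithelial markers were positive. No skeletal muscle or mammary epithelial marker had an unadjusted p under 0.05 by edgeR, with medians of 0.28 and 0.21. Skeletal muscle marker sums overlapped between the groups (3639 to 19551 CPM in controls and 291 to 36926 CPM in ANKO). Mammary marker sums overlapped too (168 to 1247 CPM in controls and 508 to 809 CPM in ANKO). Over all features edgeR called 1.1% lower and 0.488% higher, and DESeq2 called 4.6% in either direction. With edgeR 12.9% of all features had an unadjusted p under 0.05, and 9614 of 19272 had a negative log2 fold change. Of 12 adipocyte markers 2 fell (Adipoq and Plin1, with 5 called by DESeq2), 10 had a negative log2 fold change and the median was -0.71. An unadjusted p under 0.05 by edgeR was found for 7 of the 12. The lists share genes: Plin1, Lipe and Slc2a4 are also in the list of 26 above, as is the endothelial marker Kdr. The Plin1 call is thus the same call in both lists. The adipocyte marker sum was 9597, 12289 and 15143 CPM in controls 1 to 3 and 5889, 10016 and 7563 CPM in ANKO 1 to 3. ANKO 1 was the lowest, as for Cav1, Cav2, Cavin1, Cavin2 and Ehd2. The sum in ANKO 2 was above that in control 1, so the groups overlapped, whereas for those 5 members they did not. Taken singly, 5 of the 12 adipocyte markers did not overlap between the groups either, against 19.4% of all features. Leaving out ANKO 3, control 2 or control 3 ended the call for Adipoq, with an adjusted p of up to 0.0728. Of 12 endothelial markers none was called by edgeR, DESeq2 or limma-voom, 3 had an unadjusted p under 0.05 in each, all 12 had a negative log2 fold change and the median was -0.20. Their sum was 997 to 1170 CPM in controls and 837 to 991 CPM in ANKO. Of 8 macrophage markers, whose sum was 680 to 777 CPM in controls and 930 to 1111 CPM in ANKO, 1 rose (Adgre1, not called without control 2, adjusted p = 0.0544), DESeq2 called 6, and the median log2 fold change was 0.48. All 8 were without overlap between the groups, and 7 had an unadjusted p under 0.05 by edgeR. Of 10 fibroblast markers (6925 to 9170 and 7370 to 12344 CPM) and 10 mural and smooth muscle markers (809 to 1020 and 995 to 1095 CPM) edgeR called none, with medians of 0.27 and 0.22 and with 4 and 0 at an unadjusted p under 0.05. DESeq2 called 2 fibroblast markers as higher and no mural marker, and limma-voom called none of either. The part of these marker levels in the lower caveolar transcripts was not tested.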

How the data were processed

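Per the labels' protocols, total RNA of frozen fat was depleted of ribosomal RNA. The authors deposited raw counts per gene symbol, 1 column per mouse. STAR 2.0.4b, Subread, featureCounts 1.45 and GRCm38 are named in the submitters' processing notes. Annotation release and strand setting were not given in the sources used here. From 40757 lines, 329 exact repeats were removed. Groups come from the sample titles, and each mouse is 1 replicate.

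The test was that of edgeR 4.0.16 (R 4.3.3) with filterByExpr (minimum count 10, minimum total 15), TMM, robust quasi-likelihood F test, Benjamini-Hochberg adjustment over all 19272 features. Standard errors were derived from F, and 95% intervals use the test's degrees of freedom. Alternatives were RLE scaling, DESeq2 1.42.0, limma-voom (limma 3.58.1), 2 other filters, a muscle covariate, the replicate block and each library left out. The steps were tested on 1 simulated table, where the smallest changes were seldom called and false calls exceeded the nominal share. Positions and exon lengths are from GENCODE M21 (GRCm38).

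Named genes were the members, Nampt, the called genes of 2 partner lists (or the smallest p where none was called) and the 3 features closest in pattern to Cav1 and to Cav3 (pseudocount 0.5, mean CPM within 4-fold, no clone-type symbols). Of the partner list, 1 called gene is counted but not reported here. Members and lists were chosen with earlier results of these data known.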

Additional observations from a re-analysis of the deposited data

How the results depend on the processing

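Ehd2 kept its direction in every alternative run, and the 5 lower members kept negative log2 fold changes throughout. Against 1 member called lower, the count was 4 with DESeq2, 2 with no low-count filter, 0 with the muscle covariate and 0 to 1 when 1 library was left out. The 2 partner genes called lower became 7, 1, 4 and 0 with DESeq2, limma-voom, no filter and the muscle covariate, and 0 to 3 with 1 library left out. Over the whole table, 94 features were higher and 212 lower; DESeq2 gave 388 and 498, no filter 167 and 297, the muscle covariate 49 and 112, limma-voom 62 and 173, the replicate block 62 and 145, and leaving out 1 library 20 to 107 and 55 to 221. Cav3 changed sign under limma-voom (-0.49) and the block (-0.30), and ranged from -1.67 to 0.54 without 1 library, as Cavin4 did from -0.51 to 0.68. Best3, Asb18 and Hrasls also turned, to -0.16, -0.17 and -0.21 under limma-voom and -0.034, -0.031 and -0.068 with the block, and their ranges without 1 library were -1.41 to 0.83, -1.04 to 0.82 and -0.90 to 0.58. Ehd1 and Ehd3 ranged from -0.028 to 0.13 and from -0.17 to 0.011. The cause was not tested. RLE scaling and the filter of at least 1 CPM in 3 libraries changed no member's call.

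Mice with the same number in the titles share only that number: deviations from the group means correlated at 0.10, -0.03 and -0.05 for replicates 1, 2 and 3, and of the same-numbered mice only those of replicate 1 correlated best with each other. With the replicate block, Ehd2 was the only member called (adjusted p = 0.0278), and 3 partner genes were called lower. Cav3, at 4 to 64 counts, is limited by depth as well as by the spread between mice.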
